A study of Mus musculus with 10 samples.

Results

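The tumour necrosis factor (TNF) superfamily was examined in RNA sequencing of sorted mouse lung endothelial cells. The family was taken as a given list of 46 gene symbols, 18 ligands and 28 receptors, and each symbol matched exactly 1 row among the 55385 gene identifiers of the count table. All mice carried Tnfsf10, which encodes the death ligand TRAIL, flanked by loxP sites on both alleles. The tested group also carried 1 copy of a tamoxifen-inducible Cre transgene under the Cdh5 promoter, which is active in endothelium (Tnfsf10 L/L with Cdh5.Cre Tg/W, labelled EC-TRAIL KO, 5 libraries). Its controls lacked the transgene (Tnfsf10 L/L with Cdh5.Cre W/W, 5 libraries). Per the labels' protocols, mice of 8 to 14 weeks received 1 mg tamoxifen a day for 5 or 10 days, a treatment given in the same words for both groups. Which library had which number of days is not given in the labels. The presence of Cre and the deletion of Tnfsf10 therefore cannot be told apart in this comparison, which asks what loss of endothelial TRAIL does to lung endothelium. The design text counts 4 Tg/W animals where the labels and the table hold 5, and each of these 5 entered the tests. Whether every library came from its own mouse is not stated, so the p-values reflect only library-to-library spread, which may be technical.

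TNF ligands are mostly trimeric membrane proteins, some of which are shed or secreted, and they signal by clustering receptors of the matching family. Receptors with a cytoplasmic death domain can recruit FADD and caspase-8 and trigger apoptosis, while receptors that bind TRAF adaptors activate NF-kB and MAP kinases. Decoy receptors bind ligand without passing on a death signal. In endothelium the family is known for inducing adhesion molecules, for the control of permeability and for limiting or permitting cell death.

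Summed expected counts ran from 29806083 to 34702571 for libraries labelled EC-TRAIL KO and from 34435835 to 56897822 for controls, a difference in depth with an exact permutation p of 0.0159 (two-sided). Endothelial identity genes were abundant, with Cdh5 at 4038 ± 147 CPM (counts normalized to the scaled library size) in libraries labelled EC-TRAIL KO and 3822 ± 292 CPM in controls (SD, n = 5 each). The 7 endothelial markers summed to 9609 to 11130 CPM in libraries labelled EC-TRAIL KO and 9713 to 11210 CPM in controls. Of these 7, 4 had a log2 fold change above 0 and 3 below, from -0.22 (Tek) to 0.11 (Pecam1), and 0 passed. The 7 alveolar epithelial markers summed to 6175 to 8824 CPM in libraries labelled EC-TRAIL KO and 7316 to 11250 CPM in controls, so RNA of epithelium was present in every library. Lymphocyte RNA was scarce: the 8 T and NK cell markers summed to 1.47 to 1.76 CPM in libraries labelled EC-TRAIL KO and 1.62 to 2.12 CPM in controls, and the 5 B cell markers to 3.86 to 8.06 CPM in libraries labelled EC-TRAIL KO and 3.31 to 8.24 CPM in controls, with no marker of either list at 0 in all 10 libraries. The 6 fibroblast markers summed to 434.5 to 714 CPM in libraries labelled EC-TRAIL KO and 491 to 684 CPM in controls, and the 6 pericyte and smooth muscle markers to 329.7 to 570 CPM in libraries labelled EC-TRAIL KO and 443 to 590.5 CPM in controls. The 6 macrophage and monocyte markers summed to 93.8 to 105 CPM in libraries labelled EC-TRAIL KO and 80.2 to 104 CPM in controls. Of the 3 tested, Mrc1 had a log2 fold change of 0.61, Csf1r of -0.067 and Cd68 of -0.062, and 0 passed. The 3 mesothelial markers summed to 11.7 to 20.1 CPM in libraries labelled EC-TRAIL KO and 7.19 to 17.3 CPM in controls, all 3 with a log2 fold change above 0 and 0 passing. The part of these cells in the values below was not tested. In such bulk RNA, fewer cells that carry a transcript and less of it per cell cannot be told apart.

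Tnfsf10 lay below every control in 4 of the 5 libraries labelled EC-TRAIL KO, at 24.3% to 59.6% of the control mean. The gene (ENSMUSG00000039304) lies on the plus strand at GRCm38 chr3:27317028-27342427. It was at 199, 318, 126, 169 and 81.0 CPM in libraries labelled EC-TRAIL KO replicates 1 to 5, against 374, 369.5, 298, 323 and 305 CPM in control replicates 1 to 5. Replicates 1, 3, 4 and 5 with the transgene lay below every control, and replicate 2 lay inside the control range. As a share of the control mean, the libraries with the transgene kept 59.6%, 95.3%, 37.8%, 50.7% and 24.3% of Tnfsf10 CPM in replicates 1 to 5. The means were 179 ± 89.7 CPM in libraries labelled EC-TRAIL KO and 334 ± 35.7 CPM in controls (SD, n = 5 each), which is -0.90 on the log2 scale (SE 0.276). Among the 17997 genes tested with edgeR (quasi-likelihood, Benjamini-Hochberg) it missed the threshold of 0.05, with an adjusted p = 0.425 and 0.0345 to 0.808 across 19 alternatives. Taken alone, its CPM gave p = 0.0238 by an exact permutation of the libraries (two-sided). Leaving out replicate 2 of the libraries labelled EC-TRAIL KO gave a log2 fold change of -1.21, which passed (edgeR adjusted p = 0.0345). Of the 19 alternatives this was the 1 in which Tnfsf10 passed. That library had the highest Tnfsf10 value of its group, so leaving it out lowers the group mean by construction. Gene-level counts include exons that a deletion may leave in place, so the residual reads do not give the share of cells without deletion.

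**Figure D1:**
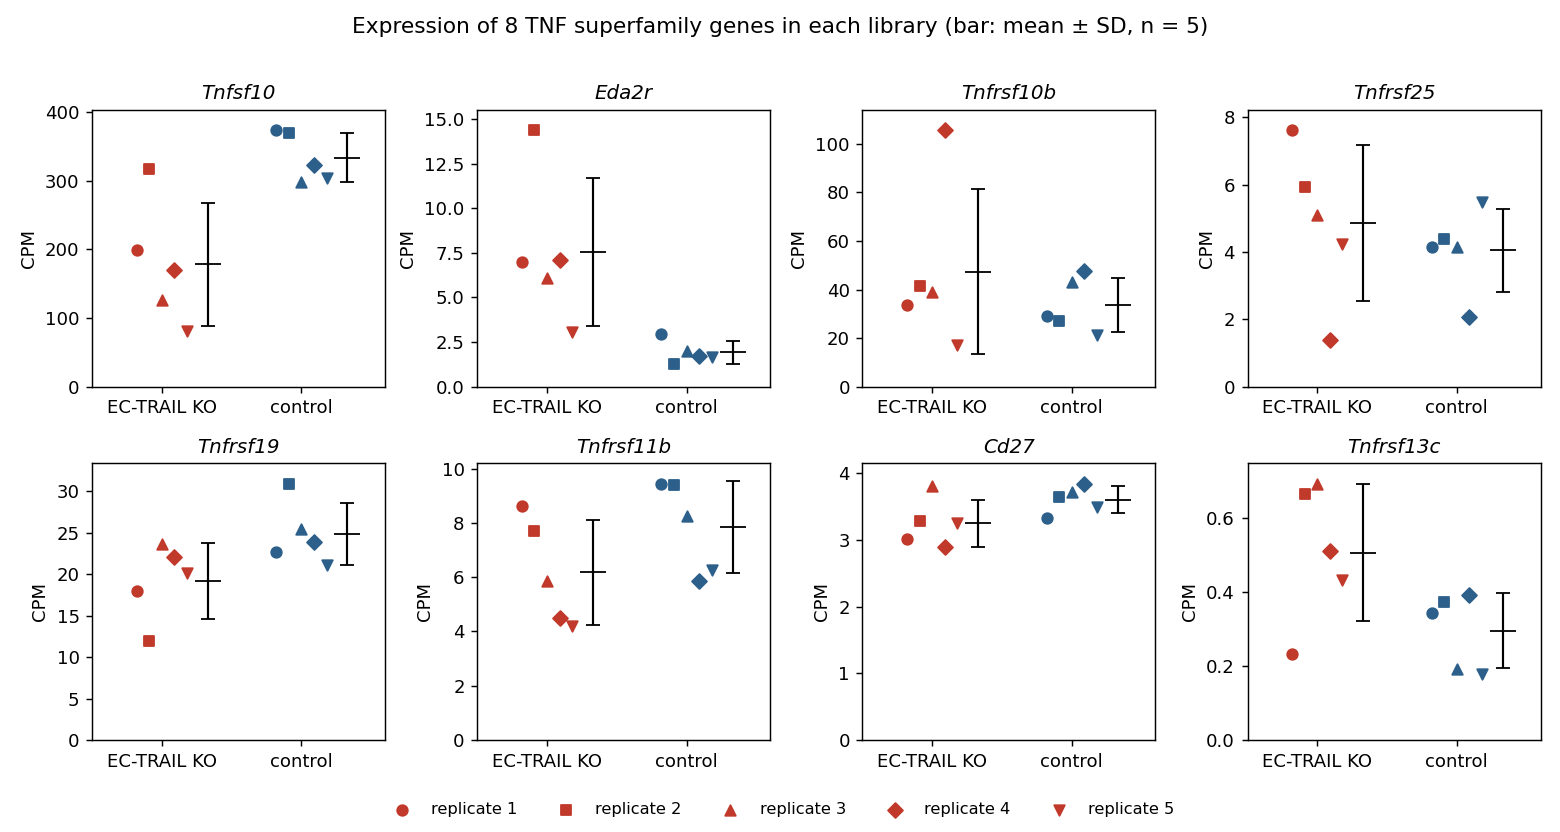
CPM of 8 genes in each library, with EC-TRAIL KO libraries in red on the left and controls in blue on the right of each panel; marker shapes give the replicate number and bars give the mean ± SD (n = 5). Eda2r has no overlap between groups, Tnfsf10 overlaps only through replicate 2 at 318 CPM, and in both groups replicate 4 is the highest for Tnfrsf10b and the lowest for Tnfrsf25.

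Tnfsf10 and Tnfsf12 made up most of the ligand level per kb of exon, and their order on that scale differed between libraries. Levels were compared between genes as CPM per kilobase of annotated exon, with the exons of all isoforms merged. That length was 5266 bases for Tnfsf10 and 1515 bases for Tnfsf12. Tnfsf10 was at 37.8, 60.4, 24.0, 32.2 and 15.4 CPM per kb in libraries labelled EC-TRAIL KO replicates 1 to 5, against 71.0, 70.2, 56.6, 61.4 and 57.9 CPM per kb in controls. Tnfsf12, which encodes TWEAK, was at 32.2, 25.3, 29.8, 30.1 and 32.0 CPM per kb in libraries labelled EC-TRAIL KO, against 33.2, 32.1, 34.9, 34.7 and 30.5 CPM per kb in controls. Tnfsf10 thus exceeded Tnfsf12 per kb in every control, and Tnfsf12 exceeded Tnfsf10 in replicates 3 and 5 labelled EC-TRAIL KO. Before division by exon length, Tnfsf10 was the higher in every library, at 81.0 to 374 CPM against 38.3 to 52.8 CPM for Tnfsf12. The order in replicates 3 and 5 thus depended on the exon length used. Of the summed ligand level per kb, Tnfsf10 accounted for 26.1% to 63.2% in libraries labelled EC-TRAIL KO and 55.5% to 60.9% in controls. The sum itself was 59.0 to 95.5 CPM per kb in libraries labelled EC-TRAIL KO and 100 to 118 CPM per kb in controls, with no overlap. Before division by exon length, the sums did overlap. They were 155.4 to 378 CPM in libraries labelled EC-TRAIL KO and 375.5 to 454.4 CPM in controls. The other 16 ligand genes together came to 9.55 to 13.7 CPM per kb in libraries labelled EC-TRAIL KO and 10.5 to 14.2 CPM per kb in controls, ranges that overlap.

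**Figure D2:**
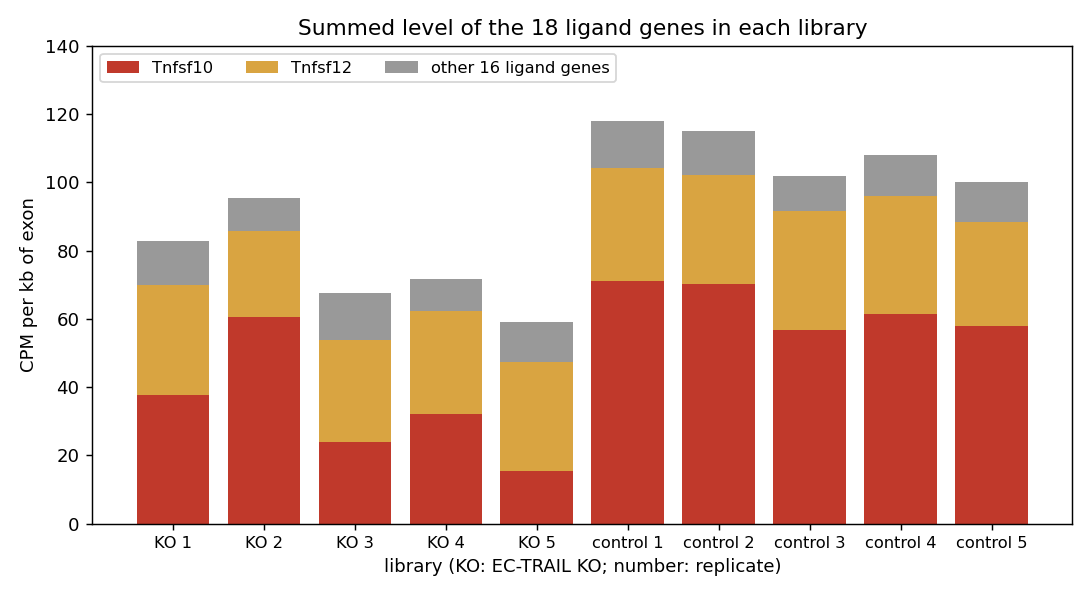
Stacked bars of the summed CPM per kb of the 18 ligand genes in each library, EC-TRAIL KO (KO) on the left and control on the right. The Tnfsf10 segment is 15.4 to 60.4 CPM per kb in KO libraries and 56.6 to 71.0 in controls, while the Tnfsf12 segment is 25.3 to 32.2 in KO libraries and 30.5 to 34.9 in controls.

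No ligand passed the test (0 of 9 tested with edgeR, with 1, Tnfsf10, at an unadjusted p under 0.05). Of all members 0 were called lower with edgeR or DESeq2, where edgeR called 0 and DESeq2 3 of all genes lower. Over all genes tested with edgeR, 0.439% were called higher and 5.13% had an unadjusted p under 0.05. Tnfsf12 (chr11:69686250-69695849, minus strand) was at 48.8, 38.3, 45.2, 45.6 and 48.5 CPM in libraries labelled EC-TRAIL KO, against 50.4, 48.6, 52.8, 52.6 and 46.3 CPM in controls (-0.15 on the log2 scale, SE 0.0759; edgeR adjusted p = 0.997). Replicates 2, 3 and 4 labelled EC-TRAIL KO lay below every control and the other 2 did not. Its neighbour Tnfsf13 (chr11:69682846-69685784, minus strand), which encodes the B cell survival factor APRIL, was at 12.3, 8.46, 11.96, 7.39 and 10.4 CPM in libraries labelled EC-TRAIL KO, against 13.4, 11.1, 10.1, 11.5 and 10.8 CPM in controls. The groups overlapped, with a log2 fold change of -0.17 (SE 0.144). Both genes share exon bases with the annotated read-through gene Tnfsfm13 on the same strand, 731 bases for Tnfsf12 and 983 for Tnfsf13, so how the counting divided reads between them makes each value uncertain. Exons of Tnfsf9, Tnfsf13 and Tnfrsf18 also overlap antisense genes, whose reads cannot be told apart without strand.

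Tnfsf9, the ligand of the costimulatory receptor 4-1BB, was at 3.24, 2.72, 5.16, 2.62 and 3.49 CPM in libraries labelled EC-TRAIL KO, against 3.64, 3.84, 2.86, 2.32 and 3.82 CPM in controls. The groups overlapped (log2 fold change 0.06, SE 0.214). Tnfsf13b, which encodes the B cell survival factor BAFF, was at 6.447, 6.403, 8.959, 7.93 and 7.63 CPM in libraries labelled EC-TRAIL KO, against 7.92, 8.12, 8.08, 8.41 and 5.89 CPM in controls. The low control was replicate 5, which stood apart from 4 closely spaced values, and the log2 fold change was -0.041 (SE 0.132). Eda, Tnfsf15, Tnf and Ltb were lower still, between 0.173 and 2.46 CPM in single libraries, with log2 fold changes of -0.076, -0.28, -0.14 and 0.37. Tnf, the founding inflammatory cytokine of the family, was at 0.546 ± 0.306 CPM in libraries labelled EC-TRAIL KO and 0.592 ± 0.373 CPM in controls (SD, n = 5 each).

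The other 9 ligand genes did not reach the low-count filter and were not tested. Cd70 and Tnfsf4, costimulatory ligands of T cells, had 0 counts in all 10 libraries, which allows up to 0.0864 to 0.0996 CPM in a library labelled EC-TRAIL KO and 0.051 to 0.0887 CPM in a control. Tnfsf11, the osteoclast factor RANKL, had 1 count in each group, Tnfsf18 had 0 counts in libraries labelled EC-TRAIL KO and 4 in controls, and Cd40lg had 3 counts in each group. Fasl, the ligand of the death receptor Fas, had 17 counts in all in libraries labelled EC-TRAIL KO and 22 in controls. Its means were 0.104 CPM in libraries labelled EC-TRAIL KO and 0.0969 CPM in controls, and its highest value was 0.152 CPM. Depth was lower with the EC-TRAIL KO label, so such totals of counts do not compare the groups. Tnfsf8, Tnfsf14 and Lta reached at most 0.217, 0.347 and 0.369 CPM in any library.

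**Figure D3:**
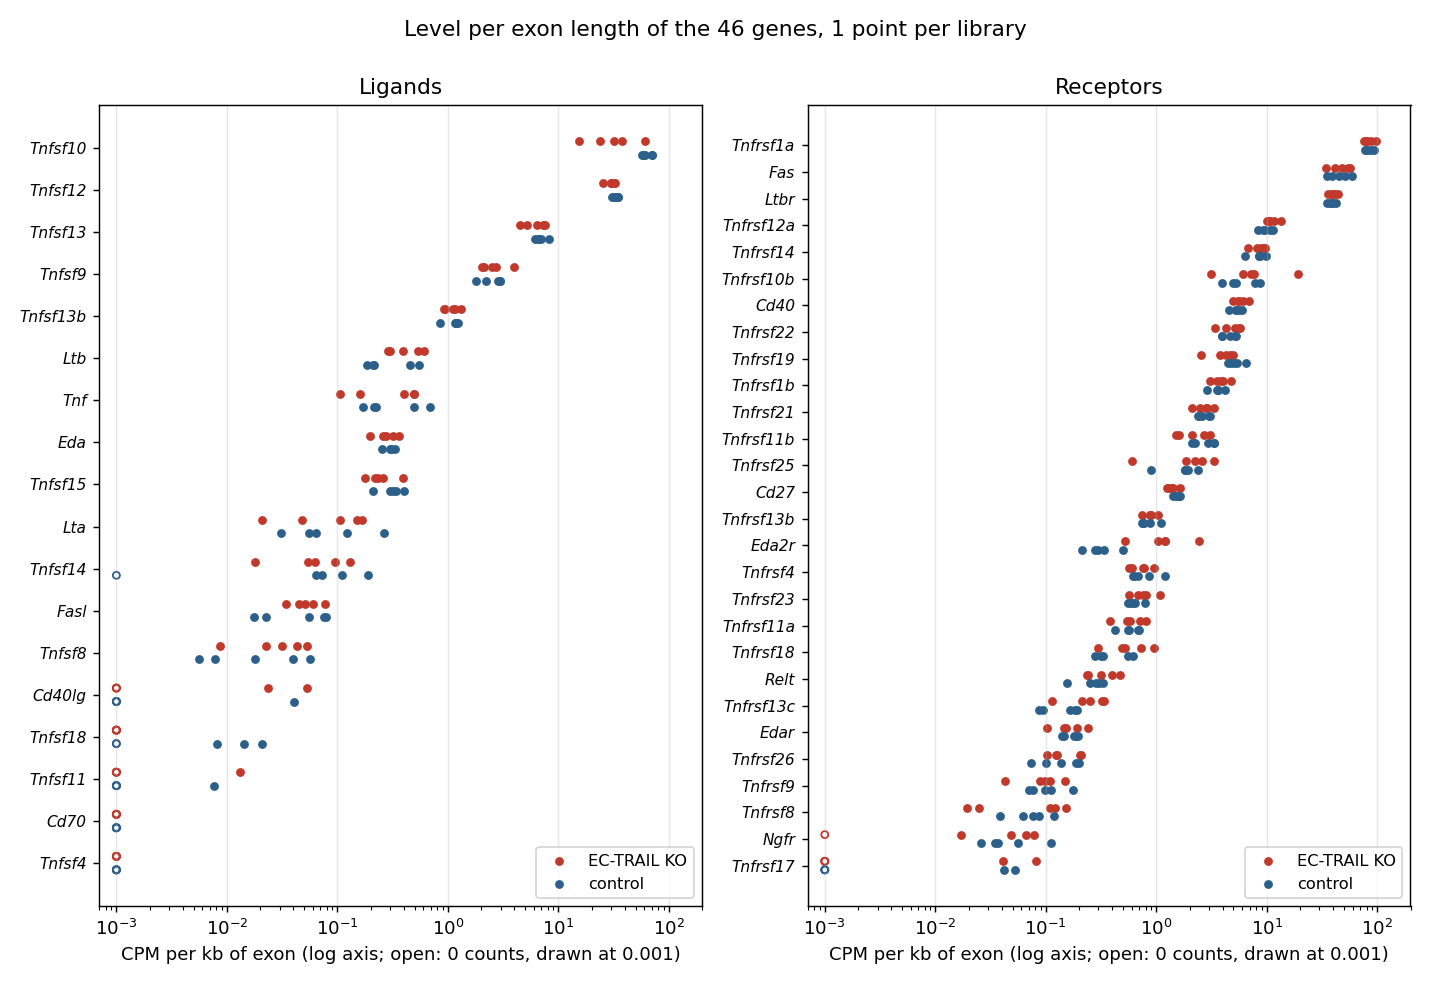
CPM per kb of exon on a log axis for the 18 ligands (left) and 28 receptors (right), ordered by their mean over 10 libraries, with 1 point per library, EC-TRAIL KO in red above control in blue; open points are 0 counts. Tnfrsf1a stands above all other receptors without overlap, and Cd70 and Tnfsf4 are at 0 throughout.

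Receptor transcripts were carried mainly by 3 genes with similar levels in both groups. Tnfrsf1a, the death domain receptor of TNF, was highest at 76.2 to 97.2 CPM per kb over the 10 libraries. Fas, the receptor of Fas ligand, and Ltbr, the lymphotoxin beta receptor, followed at 34.3 to 58.5 and 35.5 to 44.3 CPM per kb, ranges that overlap each other and that lie apart from Tnfrsf1a above and from Tnfrsf12a below. Together these 3 genes held 69.9% to 77.3% of the summed receptor level per kb in libraries labelled EC-TRAIL KO and 72.2% to 76.0% in controls. From Tnfrsf12a, at a mean of 10.5 CPM per kb, down to Cd27, at 1.47, adjacent receptors overlapped, so the order of neighbours is not resolved. Receptors further apart could be separate, as Tnfrsf12a (8.37 to 13.5 CPM per kb) was from Cd40 (4.54 to 6.93 CPM per kb).

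Tnfrsf1a was at 251.9, 225, 198, 204 and 210.1 CPM in libraries labelled EC-TRAIL KO, against 243, 207, 219, 231 and 199 CPM in controls (log2 fold change -0.015, SE 0.0833; edgeR adjusted p = 0.997). Fas was at 70.8, 86.2, 113, 99.9 and 116 CPM in libraries labelled EC-TRAIL KO, against 80.9, 72.7, 121, 105 and 92.9 CPM in controls (log2 fold change 0.04, SE 0.157). Ltbr, which activates the non-canonical NF-kB pathway, was at 104, 98.6, 91.2, 85.1 and 90.9 CPM in libraries labelled EC-TRAIL KO, against 99.1, 87.8, 93.1, 91.1 and 83.5 CPM in controls (log2 fold change 0.05, SE 0.0715). All 3 overlapped between groups, and the sign of Tnfrsf1a and of Fas turned in 5 and 4 of 19 alternatives.

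Eda2r was the single member that passed the test, at 3.92-fold in libraries labelled EC-TRAIL KO over controls. It encodes a receptor for an isoform of ectodysplasin A, a ligand known from hair, tooth and gland development, and it is known as a transcriptional target of p53. The gene (ENSMUSG00000034457) lies on the minus strand at GRCm38 chrX:97333840-97377216. Below are the 250 bases before its RefSeq start, on the minus strand of GRCm38.p6 (chrX:97377210-97377459), and those before the start of Tnfsf10, the targeted gene, on the plus strand (chr3:27316827-27317076), shown because these members had the largest fold changes in each direction. Capitals mark matches, on either strand, to the GC box GGGCGG, the CAAT box motif CCAAT and the TATA box motif TATAAA.
Eda2r: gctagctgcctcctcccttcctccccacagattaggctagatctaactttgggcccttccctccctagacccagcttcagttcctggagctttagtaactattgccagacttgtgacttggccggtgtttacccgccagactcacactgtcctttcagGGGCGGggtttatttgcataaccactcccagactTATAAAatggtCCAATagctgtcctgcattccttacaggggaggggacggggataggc
Tnfsf10: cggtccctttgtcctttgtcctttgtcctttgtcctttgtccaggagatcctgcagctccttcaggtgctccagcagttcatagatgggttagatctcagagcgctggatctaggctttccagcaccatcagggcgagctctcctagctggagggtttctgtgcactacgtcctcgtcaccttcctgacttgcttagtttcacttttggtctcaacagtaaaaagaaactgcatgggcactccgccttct
The Eda2r window held 1 match to each of these motifs, which were found in 32.7% (GC box), 33.8% (CAAT box) and 12.4% (TATA box) of 32817 such windows over all genes, and the Tnfsf10 window held none of them. Neither window held TTCCGG or the p53 half-site consensus, found in 12% and 7.12% of windows. A match or its absence describes these letters only. Both windows end inside the gene bounds given here, which come from GENCODE, so the 2 annotations place these starts differently. RefSeq promoter entries were matched for 36 of the 46 members.

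Eda2r was at 7.002, 14.4, 6.11, 7.12 and 3.09 CPM in libraries labelled EC-TRAIL KO, against 2.97, 1.24, 1.99, 1.74 and 1.66 CPM in controls. All 5 libraries with the transgene lay above all 5 controls, with the lowest of them, replicate 5, close to the highest control. The means were 7.54 ± 4.15 CPM in libraries labelled EC-TRAIL KO and 1.92 ± 0.646 CPM in controls (SD, n = 5 each), which is 1.97 on the log2 scale (SE 0.357). The edgeR adjusted p was 0.0432, and 5.2e-06 to 0.219 across 19 alternatives. The counts behind these values ran from 93 to 433 in libraries labelled EC-TRAIL KO and from 56 to 156 in controls. It was 1 of 34 members tested that rose, where 0.439% of all genes tested were called higher, and 0 members fell. It was also the 1 member without overlap between the groups, where 1.38% of all genes had no overlap with the controls lower, and 0.261% no overlap with the controls higher.

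The call sat close to the threshold. It was lost when any 1 control, or replicate 3 or 4 labelled EC-TRAIL KO, was left out, while the log2 fold change stayed between 1.6 and 2.19 over all 10 such fits. Replicate 2, the library labelled EC-TRAIL KO with control-range Tnfsf10, had the highest Eda2r value. It also had the highest summed level of 10 proliferation markers, at 883 CPM within 169 to 883 CPM in libraries labelled EC-TRAIL KO, against 52.6 to 111 CPM in controls. The sums were 169, 883, 365, 474 and 268 CPM in replicates 1 to 5 labelled EC-TRAIL KO. Replicate 1, the lowest of these in that sum, was above replicates 3 and 5 in Eda2r. All 10 of these markers were higher in every library labelled EC-TRAIL KO than in every control, as were 1.38% of all genes tested. Of the 10, 8 passed, where 0.439% of all genes were called higher. The list was chosen with earlier results of these data known. The part of these markers in the Eda2r difference was not tested. Without replicate 2 the log2 fold change of Eda2r was 1.6 and passed (edgeR adjusted p = 0.0365).

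The other genes of the ectodysplasin branch did not pass. Eda had 41 to 76 counts a library with the EC-TRAIL KO label and 58 to 123 counts a control, and Edar had 13 to 29 counts a library with that label and 22 to 40 counts a control. Eda, the ligand gene (chrX:99975606-100400762, plus strand), was at 1.94 ± 0.416 CPM in libraries labelled EC-TRAIL KO and 2.04 ± 0.198 CPM in controls. Edar, the receptor of the other ectodysplasin isoform, was at 0.606 ± 0.187 CPM in libraries labelled EC-TRAIL KO and 0.619 ± 0.0898 CPM in controls. Its adaptor Edaradd was at 0.805 ± 0.303 CPM in libraries labelled EC-TRAIL KO and 0.587 ± 0.272 CPM in controls (SD, n = 5 each). On the log2 scale Edar was at -0.031 (SE 0.252) and Edaradd at 0.45 (SE 0.359), both with an edgeR adjusted p = 0.997.

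The receptors of TRAIL did not pass the test, and the values of the death receptor spread widely. Tnfrsf10b, the mouse death receptor of TRAIL (chr14:69767472-69784411, plus strand), was at 33.5, 41.6, 38.9, 105.6 and 17.1 CPM in libraries labelled EC-TRAIL KO, against 28.9, 27.1, 43.1, 47.8 and 21.5 CPM in controls. Replicate 4 was the highest and replicate 5 the lowest in both groups. The log2 fold change was 0.49 (SE 0.393; edgeR adjusted p = 0.997), and without replicate 4 labelled EC-TRAIL KO it was -0.039. Tnfaip3, the NF-kB target that encodes the feedback inhibitor A20, was likewise highest in replicate 4 of both groups, at 344 CPM in the library labelled EC-TRAIL KO and 163 CPM in the control; the part of this in the Tnfrsf10b values was not tested.

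The decoy receptors Tnfrsf22 and Tnfrsf23 and their paralog Tnfrsf26 lie side by side on the minus strand of chr7, at 143634806 to 143649661, 143665809 to 143685872 and 143607659 to 143628722. Tnfrsf22 was at 21.9, 24.2, 23.4, 18.03 and 14.2 CPM in libraries labelled EC-TRAIL KO, against 19.4, 21.7, 22.2, 16.8 and 16.5 CPM in controls (log2 fold change 0.07, SE 0.145). Tnfrsf23 was at 2.25, 3.19, 2.996, 4.30 and 2.69 CPM in libraries labelled EC-TRAIL KO, against 2.46, 2.19, 2.35, 2.56 and 3.14 CPM in controls (log2 fold change 0.28, SE 0.186). Tnfrsf26 was at 0.671, 0.664, 0.403, 0.331 and 0.398 CPM in libraries labelled EC-TRAIL KO, against 0.609, 0.646, 0.235, 0.325 and 0.444 CPM in controls (log2 fold change 0.11, SE 0.334). All 3 overlapped between groups, and Tnfrsf22 was 4.70 CPM per kb on average against 0.709 for Tnfrsf23 and 0.147 for Tnfrsf26, levels whose ranges over the 10 libraries do not overlap. Reads shared between these related genes, or with an antisense gene that overlaps exons of Tnfrsf23 and Tnfrsf26, make the split between them uncertain.

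Tnfrsf11b encodes osteoprotegerin, a secreted decoy of RANKL that also binds TRAIL. It was at 8.61, 7.70, 5.88, 4.51 and 4.22 CPM in libraries labelled EC-TRAIL KO, against 9.44, 9.40, 8.25, 5.88 and 6.27 CPM in controls. Replicates 4 and 5 labelled EC-TRAIL KO lay below every control, and the groups otherwise overlapped. The log2 fold change was -0.35 (SE 0.216; edgeR adjusted p = 0.997).

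**Figure D4:**
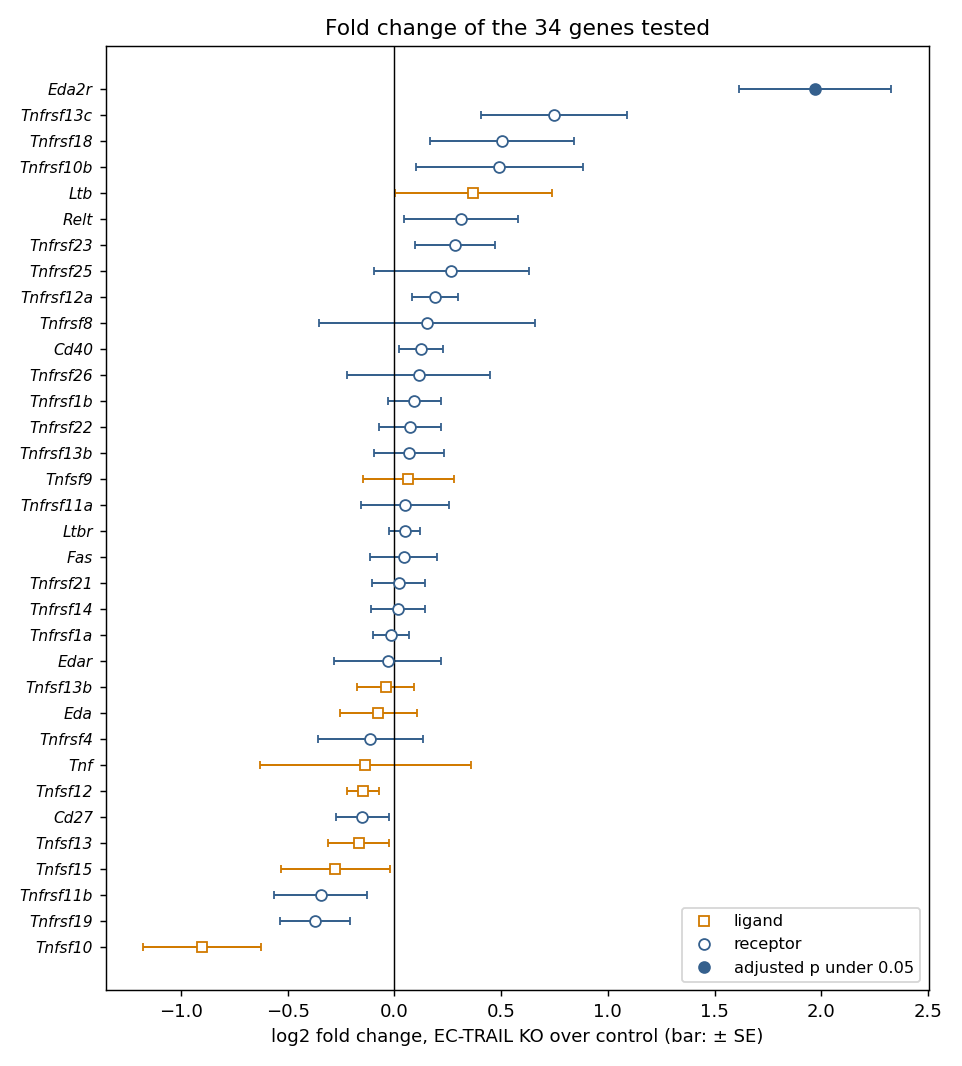
Log2 fold change (EC-TRAIL KO over control) with its standard error for the 34 members tested, ligands as squares and receptors as circles, filled where the edgeR adjusted p is under 0.05. Eda2r at 1.97 is the single filled point, and Tnfsf10 at -0.90 is the lowest.

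Of the 25 receptors tested, 1 rose, 0 fell and 24 did not pass, where 0.439% of all genes tested were called higher and 0 lower. Among these receptors 19 had a log2 fold change above 0 and 6 below, with a median of 0.07. Of all 17997 genes tested, 8532 were above 0 and 9465 below. Over all members tested the median was 0.05 and over all genes -0.0085. At an unadjusted p under 0.05 there were 2 members higher, Eda2r and Tnfrsf13c, where 3.81% of all genes were, and 2 lower, Tnfrsf19 and Tnfsf10, where 1.32% of all genes were (5.13% in either direction). DESeq2 called the same number of members higher, 1, and 0 lower.

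Tnfrsf19, an orphan receptor also called TROY, was at 18, 11.9, 23.7, 22.1 and 20.2 CPM in libraries labelled EC-TRAIL KO, against 22.7, 30.9, 25.5, 23.9 and 21.1 CPM in controls. Replicates 1, 2 and 5 labelled EC-TRAIL KO lay below every control, with replicate 2 the lowest of its group and the control of that number the highest of its own. The log2 fold change was -0.37 (SE 0.164; edgeR adjusted p = 0.955). Each of the 7 alveolar epithelial markers was likewise lowest of its group in replicate 2 labelled EC-TRAIL KO and highest of its group in control replicate 2, with sums of 6175 CPM in that library labelled EC-TRAIL KO and 11250 CPM in that control. Replicates 1 and 5 labelled EC-TRAIL KO, also below every control for Tnfrsf19, did not share this pattern in most of these markers. In both, Sftpc, Sftpb, Sftpa1 and Lamp3 lay inside the control range, while Epcam lay below every control. Cdh1 and Ager lay below every control in replicate 1 but not in replicate 5. All 7 markers had a log2 fold change below 0 and 0 passed, and their part in the Tnfrsf19 difference was not tested. Tnfrsf12a, the TWEAK receptor Fn14, was at 20.5, 20.3, 22.4, 26.2 and 19.3 CPM in libraries labelled EC-TRAIL KO, against 22.1, 16.2, 18.5, 20.6 and 17.8 CPM in controls (log2 fold change 0.19, SE 0.107; edgeR adjusted p = 0.997). The groups overlapped, with 2 libraries labelled EC-TRAIL KO above every control.

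Tnfrsf14, the herpesvirus entry mediator that binds LIGHT, was at 11.8, 12.6, 13.8, 9.77 and 13.2 CPM in libraries labelled EC-TRAIL KO, against 12.6, 14.3, 12.2, 9.15 and 12.2 CPM in controls (log2 fold change 0.02, SE 0.127). Cd40, which activates endothelium on contact with CD40 ligand, was at 19.8 ± 2.54 CPM in libraries labelled EC-TRAIL KO and 18.2 ± 1.84 CPM in controls. Tnfrsf1b, the other TNF receptor, was at 14.6 ± 2.31 CPM in libraries labelled EC-TRAIL KO and 13.7 ± 1.80 CPM in controls (SD, n = 5 each). Their log2 fold changes were 0.12 (SE 0.103) and 0.09 (SE 0.125). These TRAF-binding receptors overlapped between groups, as did Tnfrsf21, the death domain receptor DR6, at 11.2 ± 1.84 CPM in libraries labelled EC-TRAIL KO and 11.1 ± 1.27 CPM in controls. Tnfrsf25, the death domain receptor DR3, was at 7.61, 5.94, 5.10, 1.38 and 4.25 CPM in libraries labelled EC-TRAIL KO, against 4.15, 4.40, 4.15, 2.06 and 5.47 CPM in controls. Replicate 4 was lowest in each group, and the log2 fold change was 0.27 (SE 0.364).

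Receptors known from lymphocytes were low and did not pass. Cd27, a T and B cell costimulatory receptor, was at 3.01, 3.29, 3.80, 2.89 and 3.25 CPM in libraries labelled EC-TRAIL KO, against 3.33, 3.64, 3.72, 3.84 and 3.49 CPM in controls. All but replicate 3 labelled EC-TRAIL KO lay below every control, though the log2 fold change was small at -0.15 (SE 0.125; edgeR adjusted p = 0.997). Tnfrsf13c, the BAFF receptor of B cells, was at 0.233, 0.664, 0.691, 0.511 and 0.432 CPM in libraries labelled EC-TRAIL KO, against 0.343, 0.374, 0.192, 0.390 and 0.178 CPM in controls. That is 8 to 24 counts a library with the EC-TRAIL KO label and 6 to 22 counts a control. All but replicate 1 labelled EC-TRAIL KO lay above every control, at 0.75 on the log2 scale (SE 0.343; edgeR adjusted p = 0.973). The summed B cell markers given above overlapped between groups. Tnfrsf13b, the receptor TACI, was at 2.53 ± 0.300 CPM in libraries labelled EC-TRAIL KO and 2.41 ± 0.437 CPM in controls (SD, n = 5 each).

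The costimulatory receptors Tnfrsf4, Tnfrsf8 and Tnfrsf18 were between 0.0664 and 1.63 CPM in single libraries, with log2 fold changes of -0.11, 0.15 and 0.50. Tnfrsf11a, the RANK receptor, had 0.05 and Relt, a lymphoid receptor, 0.31, and their groups overlapped. Tnfrsf9, Tnfrsf17 and Ngfr did not reach the filter, with at most 0.477, 0.0664 and 0.381 CPM in any library.

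None of the 33 genes listed as acting below TNF receptors or releasing their ligands passed the test with edgeR or DESeq2, 1 reached an unadjusted p under 0.05, and of all genes tested 0.439% were called higher and 5.13% reached that unadjusted level. Their median log2 fold change was 0.05, against -0.0085 over all genes. The gene below that unadjusted p was Traf3, an adaptor that restrains non-canonical NF-kB signalling, at 48.2 ± 5.51 CPM in libraries labelled EC-TRAIL KO and 41.3 ± 4.25 CPM in controls (log2 fold change 0.22, SE 0.0961; edgeR adjusted p = 0.919). Rbck1, of the linear ubiquitin ligase complex, was at 125 ± 8.64 CPM in libraries labelled EC-TRAIL KO and 116 ± 4.43 CPM in controls (log2 fold change 0.10, SE 0.0632). The necroptosis kinase Ripk3 was at 26.8 ± 1.70 CPM in libraries labelled EC-TRAIL KO and 24.0 ± 3.95 CPM in controls (log2 fold change 0.16, SE 0.106). Cyld, the deubiquitinase that limits NF-kB signalling, was at 37.9 ± 4.84 CPM in libraries labelled EC-TRAIL KO and 41.6 ± 2.79 CPM in controls, a log2 fold change of -0.14 (SE 0.0922). The TNF sheddase Adam17 was at 74.3 ± 6.33 CPM in libraries labelled EC-TRAIL KO and 74.6 ± 5.29 CPM in controls.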

How the data were processed

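Expected counts per gene, with no normalization, were deposited for 10 libraries; the submitters' processing notes name STAR 2.7.1a, RSEM 1.2.28 and GRCm38. For the authors' annotation release and strandedness, no source used here gives a value. Symbols, positions and exon lengths came from GENCODE M21 of GRCm38 (55144 identifiers matched without version, 241 did not); promoter sequences came from RefSeq on GRCm38.p6. Expected counts were rounded and tested in R 4.3.3 with edgeR 4.0.16 (filterByExpr with a minimum count of 10, TMM, quasi-likelihood F-test with the installed version's default settings, group as the single term), with Benjamini-Hochberg adjustment over all 17997 genes tested and a threshold of 0.05. CPM used TMM-scaled library sizes. The standard error is the log2 fold change divided by the square root of F. A gene at 0 is compatible with up to 3 counts; such floors cover counting error only. The test was checked on simulated data, and no pair of libraries agreed within sampling noise. Alternatives were RLE factors, library size only, DESeq2 1.42.0, limma-voom (limma 3.58.1), no filter, a filter on mean CPM (minimum 1), a block for the replicate number and each library left out, and, chosen after seeing the data, both libraries numbered 4 left out and edgeR's newer estimation. Members and gene lists were chosen with earlier results of these data known. Values of every library are given for Tnfsf10, members that passed or did not overlap between groups, the TRAIL receptors and their paralogs, the 4 ligands and 6 receptors highest per kb, the 8 members with the smallest p, and members with a library standing apart. Tnfrsf25 and Cd27 were added after their values were seen. Of the signalling components the rule names up to 4 with the smallest p; Tnfaip3, Edaradd and Adam17 were named after their values were seen.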

Additional observations from a re-analysis of the deposited data

Results flagged for a closer look

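A single library far from the other 4 of its group was seen in 2 of the 68 groups of 5 examined over the members tested, where chance flags about 1 group in 20. Tnfrsf10b was at 105.6 CPM in the library labelled EC-TRAIL KO replicate 4, with the next highest of that group at 41.6 CPM. Tnfsf13b was at 5.89 CPM in control replicate 5, with the next lowest control at 7.92 CPM.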

How the results depend on the processing

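Depth was lower with the EC-TRAIL KO label, and the detection of differences was not measured by expression level, so for members with few counts a missed threshold does not show equal levels. The number of genes called higher was 79, with 0 lower. With library size only or limma-voom it was 2 higher, with DESeq2 208 higher and 3 lower, with no low-count filter 141 higher and 2 lower, and without both libraries numbered 4 it was 1 higher; in the first, second and last of these settings 0 members were called, against 1. With each library left out in turn, 2 to 154 genes were called higher and 0 to 1 lower (2 without any 1 control or without replicate 3 or 4 labelled EC-TRAIL KO, and 154 without its replicate 1), 0 to 1 members higher and 0 to 1 lower; the member called lower was Tnfsf10, without replicate 2 labelled EC-TRAIL KO. Its log2 fold change was -1.21 to -0.717 in these fits. The older quasi-likelihood estimation, planned as an alternative, was the installed default, and the newer one left these counts at 79 and 1. The replicate number as a block gave 146 genes higher and 3 lower; Tnfsf10 was then at -1.04 (edgeR adjusted p = 0.0513) and Eda2r at 1.87 (edgeR adjusted p = 0.0409), and no call of a member changed. Deviations of same-numbered libraries correlated at 0.0679 to 0.433. Libraries numbered 1, 3, 4 and 5 correlated best with their own number in both groups, and those numbered 2 in neither. For number 4 the correlation was 0.433, against at most 0.00805 with another number. No label says what a number marks, so the main test took no pairs. Whether same-numbered libraries share a source was not tested. Eda2r kept its direction in all 19 alternatives and was called in 9; its adjusted p was 0.0501 with library size only, 0.144 with limma-voom and 0.219 without both libraries numbered 4. The sign held in all alternatives for 20 of the 34 members tested. For the other 14, none of them called, the log2 fold change with each library left out in turn ran from -0.175 to 0.0258 for Eda, -0.201 to 0.101 for Edar, -0.0379 to 0.144 for Fas, -0.328 to 0.242 for Tnf, -0.0386 to 0.705 for Tnfrsf10b, -0.0715 to 0.176 for Tnfrsf11a, -0.0666 to 0.0892 for Tnfrsf14, -0.073 to 0.0241 for Tnfrsf1a, -0.0601 to 0.0972 for Tnfrsf21, -0.0512 to 0.285 for Tnfrsf26, -0.232 to 0.081 for Tnfrsf4, -0.146 to 0.399 for Tnfrsf8, -0.121 to 0.00923 for Tnfsf13b and -0.129 to 0.15 for Tnfsf9. The sign of Tnfrsf8 also turned with limma-voom (-0.12), and without both libraries numbered 4 Tnfrsf1a was at 0.0293, Tnfrsf4 at 0.0648 and Tnfrsf8 at -0.0727. The cause of these shifts was not tested.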
